A study of Mus musculus with 2 samples.

Results

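The cells described here are 466 Pdgfra-positive stromal cells of mouse subcutaneous white fat in which Dpp4, Pi16, Cd55 and Sema3c stood together above their levels in the other cells. They were picked by measured values. Barcodes were kept with at least 1000 UMIs (unique molecular identifiers, each standing for 1 captured transcript), at least 500 genes, at most 10% mitochondrial UMIs and at least 1 Pdgfra UMI. Each cell then received 6 scores, each the mean standardised level of 4 genes over these cells, and it was assigned to the highest score if that reached 0.5. The scores were A (Dpp4, Pi16, Cd55, Sema3c), B (Cxcl14, G0s2, Plin2, Pparg), C (F3, Fmo2, Mfap4, Chrdl1), D (Il6, Procr, Thbd, Adamts4), E (Itgbl1, Fbn2, Wnt4, Tgfbi) and F (Ptn, Ackr4, Ppp2r2b, Enpp3). Cells of score A, called members below, numbered 466 of the 2483 Pdgfra-positive cells and of the 2854 cells that passed the other filters. The WT library gave 264 of them and the Paqr4 transgenic library 202.

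The series compared the stromal vascular fraction, the non-adipocyte cells released from fat by collagenase, of WT and Paqr4 transgenic mice by droplet 3′ RNA sequencing. Cells lacking the leukocyte antigen CD45 were sorted after lysis of red cells, and the series text gives 3 pooled mice without saying whether this is per genotype. The labels give neither the age of the mice, nor the strain, nor the promoter or tissue of the transgene. With 1 library of each genotype there is no replicate check of any difference and no test was run, and every 95% interval covers counting error only.

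The WT library held 44145257 UMIs and the transgenic library 43084906, with no cell barcode in common among the cells kept. Members were read deeply: their median was 25354.5 UMIs and 4974 genes in WT and 23029.5 UMIs and 4843 genes in the transgenic library. Xist had a UMI in 253 of the 264 WT members (95.8%) and in 0 of the 202 transgenic ones, whereas a Y-linked gene had one in 5 WT members (1.89%) and 193 transgenic members (95.5%). Since sex is not among the labels, and the libraries differ in it by these genes, sex and genotype cannot be told apart wherever the libraries are compared. Scrublet, a caller of droplets that hold more than 1 cell, marked 1 WT and 4 transgenic cells, of which 1 was a member. At so low a rate it cannot be taken to have found the doublets, and the cells were kept.

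Fat contains several fibroblast-like progenitor populations. Cells bearing DPP4 and PI16 lie in the connective tissue sheath around the fat lobules, called the reticular interstitium, and in transplantation and lineage studies they give rise to more committed preadipocytes. DPP4 is a membrane peptidase that trims dipeptides from chemokines and incretins. PI16 is a secreted or membrane-anchored protein of the CAP domain family, CD55 protects cells from complement by speeding the decay of its convertases, and SEMA3C is a secreted guidance cue that signals through neuropilins and plexins.

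The 4 genes that chose the members are given as a description. On the scale of UMIs per 1000000 UMIs of the summed cells (UPM), Dpp4 stood at 363 in WT members and 272 in transgenic members, against 45.5 and 22.0 in the other Pdgfra-positive cells. Pi16 stood at 999.8 and 959.9 UPM in members and at 79.4 and 60.2 UPM in the others. Cd55 stood at 991 and 1209 UPM against 121 and 133. Sema3c stood at 1262 and 1259 UPM against 202 and 179. All 4 transcripts were seen together in 244 WT members (92.4%) and 179 transgenic members (88.6%), and 3 of them in 20 and 22 members. Pi16 had a UMI in 98.9% of WT and 99.0% of transgenic members. When cells were thinned to 5000 UMIs, with 2 and 3 shallower members left out, these shares were 91.6% and 86.9%. Endothelial cells were taken as those with a Pecam1 and a Cdh5 UMI and no Pdgfra UMI, and should lack Pi16. They had a Pi16 UMI in 5.38% and 1.33% of cells at medians of 9882 and 7989 UMIs. After thinning, a Pi16 UMI was in 5.13% of 78 WT cells and 0 of 67 transgenic cells, which allows up to 5.36% (exact interval). The other Pdgfra-positive cells had one in 38.4% and 29.4% (19.4% and 16.4% after thinning). Pi16 thus lay above the endothelial share outside the members too.

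The stretch before the start of Dpp4 is shown because this gene gives the cells their name. It is the 250 bases upstream of the RefSeq start (GRCm38.p6, chr2:62412232-62412481, minus strand), written 5′ to 3′ along the gene, with capitals marking the TEAD motif GGAATG found on the opposite strand. Dpp4 (ENSMUSG00000035000) itself runs over chromosome 2, 62330073 to 62412231, minus strand (GRCm38, GENCODE M21).
Dpp4: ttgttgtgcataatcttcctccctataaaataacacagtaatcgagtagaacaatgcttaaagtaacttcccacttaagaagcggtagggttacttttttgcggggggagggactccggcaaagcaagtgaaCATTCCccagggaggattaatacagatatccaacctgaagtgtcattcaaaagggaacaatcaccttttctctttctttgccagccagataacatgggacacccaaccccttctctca
The match begins 118 bases before the start. GGAATG on either strand occurred in 12.6% of the 32851 promoters of that length, and among the 11 of 14 leading member genes that had an entry it also occurred in Ano3 and Edn1. The AP-1 motif TGANTCA (6.75% of all promoters) was found in Sbsn alone among those 11, and in none of the 4 score A genes. These matches are letters in a window, and no binding was measured.

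Markers of other cell types were summed over each list in the members. The 9 endothelial genes summed to 25.1 UPM in WT members and 52.2 UPM in transgenic members, against 12676 and 10537 UPM in the endothelial cells of the same libraries. Pecam1 and Cdh5 are among the 9 genes and also chose those endothelial cells, so part of this gap follows from the choice. The 9 leukocyte genes summed to 1.88 and 1.48 UPM, with Ptprc, the gene of CD45, at 0 in both. The 8 pericyte and smooth muscle genes summed to 6.79 and 6.55 UPM and the 6 adipocyte genes to 0.722 UPM and 0. The 6 epithelial genes summed to 0.144 UPM and 0, and the 6 Schwann genes to 3.90 and 4.44 UPM. These 4 lists were below their free RNA level in both libraries. The sums of the lymphatic and mesothelial lists were not low. The 5 lymphatic genes summed to 352 and 385 UPM in members, above 279 and 288 UPM in the other Pdgfra-positive cells and below 644 and 1094 UPM in endothelial cells; Pdpn, which fibroblasts also express, made up 347 and 379.9 UPM of it. The 8 mesothelial genes summed to 379.8 and 222 UPM in members, below 554 and 422 UPM in the others and above 14.5 and 72.6 UPM in endothelial cells, with 4 of the 8 genes detected in WT and 2 in transgenic members. The 6 red cell genes summed to 4922 and 4556 UPM, compared with 309244 and 277763 UPM in barcodes of 50 or fewer UMIs, which sample free RNA. The 7 pan-fibroblast genes, which include the required Pdgfra, summed to 23610 and 18187 UPM in members. This was below 32952 and 29610 UPM in the other Pdgfra-positive cells. It was above 14809 and 17130 UPM in free RNA and 173 and 136 UPM in endothelial cells. The part of free RNA and of other cells in the differences below was not tested.

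Members formed a smaller share of the Pdgfra-positive cells in the transgenic library. They were 23.2% in WT (20.8 to 25.8, Clopper-Pearson) and 15.0% in the transgenic library (13.1 to 17.0), a ratio of 0.645 (0.547 to 0.761). Of all cells kept they were 19.9% and 13.2%. Score F cells had a ratio of 0.679 and score D cells one of 0.782, whereas score B, C and E cells stood at 1.41, 1.63 and 1.60. The shares of 1 library add up to 100%, so they are not independent of each other. The direction held under all 15 alternatives that alter the share (0.593 to 0.772), and the ratio nearest to 1 came from standardising the scores within each library.

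**Figure D1:**
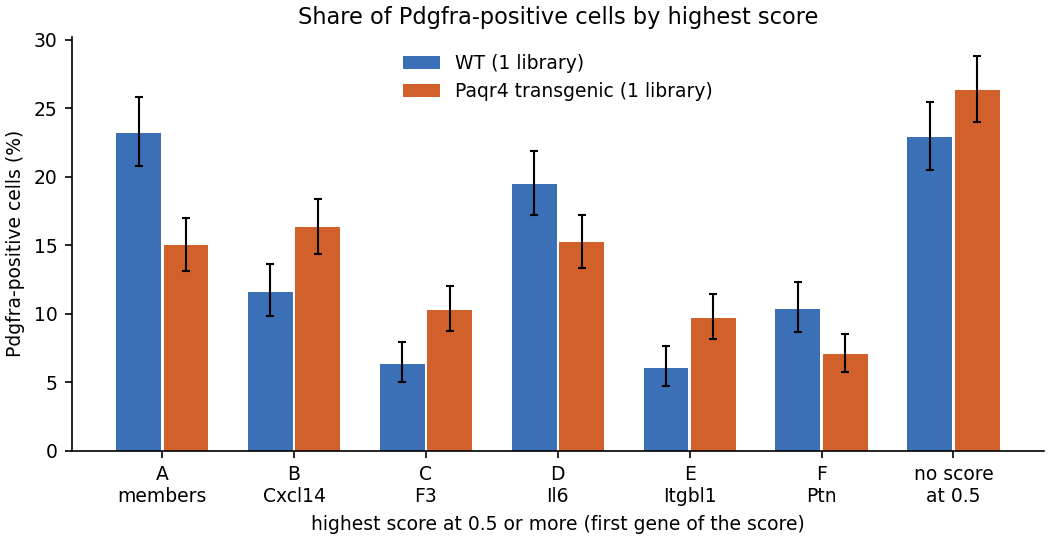
Share of Pdgfra-positive cells (vertical axis, percent) by highest score (horizontal axis), in the WT library (blue) and the Paqr4 transgenic library (orange). Bars are the share in 1 library and whiskers the 95% Clopper-Pearson interval; members (A) stand at 23.2% in WT and 15.0% in the transgenic library.

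Many genes outside the scores set the members apart in both libraries, as follows from a choice made on the transcripts of the same cells, and their values are a description without a test. Of 3471 genes at 50 UPM or more in members or in the others of each library, 117 (3.37%) were at least 2-fold higher in members of both libraries and 155 (4.47%) at least 2-fold lower. The 14 genes highest by the ratio nearer to 0 of both libraries were each at their highest level in members among the 7 groups of cells, in both libraries. They were ranked against the remaining groups pooled, so this order largely follows from the choice.

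Secreted signals formed one group among these 14. Bmp6, a bone morphogenetic protein, stood at 164 UPM in WT members and 245 UPM in those of the transgenic library, against 20.3 and 19.6 UPM in the others (log2 3.02 and 3.65). Sema3e, a semaphorin that binds plexin D1, stood at 224 and 367 UPM against 28.7 and 18.7 (log2 2.96 and 4.29). Edn1, which encodes the vasoconstrictor endothelin, stood at 81.4 and 59.2 UPM against 7.85 and 7.40 (log2 3.38 and 3.00). In each case both libraries had the higher level in members. Tnfrsf11b, the decoy receptor osteoprotegerin, stood at 59.6 and 76.9 UPM against 5.26 and 4.58 (log2 3.50 and 4.07).

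The widest gap among the 14 belonged to Adamts16, a secreted metalloproteinase (ENSMUSG00000049538; chromosome 13, 70727802 to 70841811, minus strand). It stood at 162 UPM in WT members and 184 UPM in transgenic members, against 1.60 and 1.86 UPM in the others, a log2 ratio of 6.66 (6.14 to 7.22) and 6.63 (6.18 to 7.12). An Adamts16 UMI was present in 62.1% of WT and 61.4% of transgenic members, and in 2.06% and 1.31% of the others. Thinned to 5000 UMIs, these shares were 35.1% and 39.2% of members and 0.702% and 0.713% of the others. In endothelial cells it was seen in 1 of 93 WT cells (1.08%) and 0 of 75 transgenic cells, which allows up to 4.80% (exact interval). Most members but not all of them thus carried a detected Adamts16 transcript, at a share far above that of the other stromal cells.

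Enzymes were the next group. Ptgs1, a cyclooxygenase of prostaglandin synthesis, stood at 96.5 and 129 UPM against 8.52 and 8.76 in the others (log2 3.50 and 3.88). Cmah, which hydroxylates a sialic acid precursor, stood at 222 and 418 UPM against 29.5 and 29.0 (log2 2.91 and 3.85). Car8, a carbonic anhydrase relative without that activity, stood at 223 and 183 UPM against 39.5 and 25.3 (log2 2.50 and 2.86).

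The other genes of the 14 have varied roles. Limch1, an actomyosin regulator, stood at 542 and 582 UPM against 52.2 and 51.6 (log2 3.38 and 3.50). Several of the 14 were also frequent in endothelial cells. A Limch1 UMI lay in 67.7% of WT and 81.3% of transgenic endothelial cells. A Bmp6 UMI lay in 52.7% and 77.3% of them, compared with 72.0% and 78.7% of members. After thinning to 5000 UMIs, Bmp6 was more frequent in endothelial cells (48.7% and 68.7%) than in members (37.8% and 50.8%). Arhgef28 was about as frequent in endothelial cells (64.5% and 65.3%) as in members (64.8% and 64.9%), and above them after thinning to 5000 UMIs (56.4% and 49.3% against 35.5% and 34.2%). Ptgs1 and Car8 were in 32.3% and 23.7% of WT and 5.33% and 9.33% of transgenic endothelial cells, and the other 9 in at most 6.45%. Efhd1, a calcium-binding protein of mitochondria, stood at 219 and 258 UPM against 20.7 and 19.0. Ano3 (anoctamin family), Adgrg2 (an adhesion G protein-coupled receptor), Arhgef28 (a guanine nucleotide exchange factor) and Sbsn (a secreted protein first known from skin) had log2 ratios of 4.79, 2.90, 3.56 and 3.50 in WT and 3.62, 3.20, 2.60 and 4.53 in the transgenic library.

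Across single Pdgfra-positive cells, the genes that followed score A most closely outside the scores were Limch1 (Pearson r = 0.80 in WT and 0.81 in transgenic cells) and Efhd1 (0.77 and 0.79). Fbn1, the fibrillin of microfibrils, followed at 0.71 and 0.73 and Tmem100 at 0.67 and 0.67. Then came Cmah (0.66 and 0.77), Adamts16 (0.67 and 0.65), Fn1, which encodes fibronectin (0.65 and 0.65), and Ly6c1 (0.65 and 0.64). These coefficients run over 1136 and 1347 cells that share a library and its depth, and describe the cells only.

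The 10 genes lowest in members were each at their lowest in members among the 7 groups of both libraries, which again largely follows from the choice. Mgp, an inhibitor of calcification bound to matrix, stood at 51.7 UPM in WT members and 118 UPM in those of the transgenic library, against 1036 and 1095 UPM in the others (log2 −4.33 and −3.22). Col15a1, a collagen of basement membrane zones, stood at 39.7 and 70.4 UPM against 571 and 569.7 (log2 −3.85 and −3.02). Pappa, a protease that frees insulin-like growth factors from their binding proteins, stood at 3.18 and 10.1 UPM against 146 and 94.6 (log2 −5.52 and −3.22). For most of them the highest group was the cells of score B, the preadipocyte genes. Apoe, the lipoprotein component, had log2 ratios of −3.50 and −4.46, and Steap4, a metalloreductase, −3.19 and −4.09. Spon1, Crispld2, Cyp7b1, Tox and Gnai1 lay between −4.50 and −2.80 in WT and between −3.69 and −3.07 in the transgenic library.

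**Figure D2:**
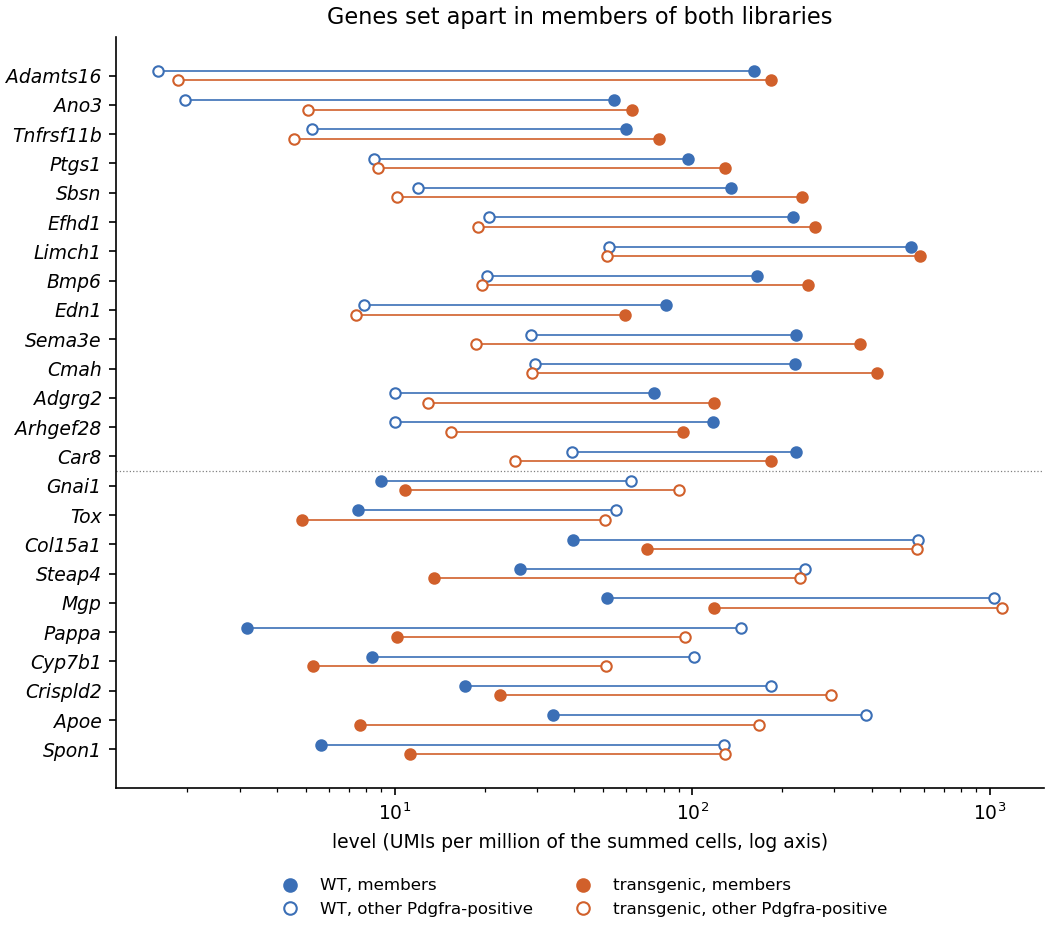
Level of the 14 highest (above the dotted line) and 10 lowest genes in members (filled) and other Pdgfra-positive cells (open), in UPM on a log axis, for WT (blue) and transgenic (orange) libraries. Each point is 1 library; Adamts16 spans 1.60 to 162 UPM in WT, and all 24 genes keep their direction in both libraries.

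Gene lists written for this tissue were read at 10 UPM or more, where 5.01% of 8528 genes lay at least 1.5-fold higher in members of both libraries and 9.24% at least 1.5-fold lower, with a median log2 ratio of −0.05 (mean of both libraries). Of the 24 interstitial fibroblast genes, 23 reached the level, all 23 stood above 0 in both libraries, and 21 were past 1.5-fold, with a median of 1.84. Bmp7, a ligand of the BMP family, had log2 ratios of 5.17 and 5.86, and Dact2, an intracellular modulator of Wnt and Nodal signalling, 3.72 and 4.30. Several of these genes are known markers of such cells from other work, so the list restates the label. Counts above or below 0 in this and the following lists were not set beside the same share of all genes.

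Other lists of stromal genes had members on both sides of 0. Of 13 measured adipogenic factors 6 were above 0 and 5 below 0 in both libraries, 1 past 1.5-fold higher and 3 past 1.5-fold lower, with a median of −0.09 in WT and 0.15 in the transgenic library. All 7 measured lipid handling genes were below 0 in both libraries, 5 of them past 1.5-fold, with a median of −1.33. Lpl, the lipase that frees fatty acids from lipoproteins, stood at 499 and 310.2 UPM against 1211 and 921 UPM. All 6 measured genes of the F3 progenitor list were below 0, 5 of them past 1.5-fold, with a median of −1.94. Gdf10, a BMP family ligand, stood at 34.4 and 20.1 UPM against 184 and 226. Of 11 insulin-like growth factor genes, 9 were below 0 and 6 past 1.5-fold (median −0.73), but Igfbp5, a binding protein, stood the other way, at 697 and 1072 UPM against 219 and 44.0. Of 10 retinoid genes, 8 were below 0 and 6 past 1.5-fold (median −0.80), among them Cyp26b1, which degrades retinoic acid (log2 −2.72 and −2.82), and Aldh1a2, which makes it (−1.39 and −2.05).

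The partners of the marker proteins were measured as well. Of the chemokines and hormones that DPP4 can cleave, 4 of 12 matched genes reached 10 UPM, and 3 of them (Ccl11, Cxcl10 and Cxcl12) were past 1.5-fold lower in both libraries, while Cxcl9 was lower in members of WT and higher in those of the transgenic library. Ccl11, the eosinophil attractant eotaxin, stood at 551 and 366 UPM in members against 1248 and 969 UPM in the others. Cxcl12, a chemokine that holds blood stem cells in their niche, stood at 54.2 and 23.2 UPM against 248 and 137. Fap, the closest relative of Dpp4, stood at 102 and 85.1 UPM against 186 and 195, and of 6 measured members of that peptidase family 3 were below 0 in both libraries. Of 12 complement genes beside Cd55, 11 were below 0 in both libraries and 5 past 1.5-fold (median −0.49). Among semaphorins and their receptors 4 of 12 were past 1.5-fold higher and 3 lower. Plxna1, a plexin receptor, stood at 59.9 and 56.2 UPM against 16.7 and 13.7, while Plxnd1, the receptor of Sema3e, stood at 5.49 and 5.07 UPM against 25.1 and 26.1.

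Signalling and matrix lists held members of both directions. Of 22 Wnt genes, 4 were past 1.5-fold higher in both libraries and 7 lower. Wnt10b, a ligand that restrains adipogenesis, stood at 32.9 and 36.1 UPM against 1.55 and 2.41, Dact1, an intracellular Wnt modulator, at 114 and 221 against 25.5 and 45.5, and the secreted inhibitor Sfrp1 at 13.0 and 28.5 against 140.5 and 167. Of 24 genes of the TGF-beta and BMP pathway, 3 were past 1.5-fold higher and 4 lower. Of 16 collagens, 2 were past 1.5-fold higher and 3 lower: Col14a1, a fibril-associated collagen, stood at 1891 and 1814 UPM against 785 and 621, whereas Col4a1, of basement membranes, stood at 404 and 518 against 1215 and 1596. Of 14 elastic fibre genes 2 were higher and 3 lower, with Mfap5, a microfibril glycoprotein, at 1454 and 1681 UPM against 511 and 579 and Fbln1, a fibulin, at 105 and 111 against 469.5 and 369.7. Immediate early genes, which tissue digestion is known to raise, were below 0 in both libraries for 14 of 16 genes, 5 of them past 1.5-fold (median −0.51).

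Scores F and D were most often the second highest score of a member. The second highest score was F in 140 WT and 88 transgenic members and D in 60 and 45, and another score reached 0.5 in 90 WT members (34.1%) and 52 transgenic members (25.7%). Against score F cells, 68 of 3419 genes (1.99%) were 2-fold or more higher in members of both libraries and 88 (2.57%) lower. Against score D cells these were 156 of 3415 (4.57%) and 223 (6.53%), above the 3.37% and 4.47% against all other Pdgfra-positive cells. Such counts were not made for scores B, C and E. Nav3, a neuron navigator family gene chosen here after its values were seen, separated members from score F cells: it stood at 701 and 236 UPM in members against 72.0 and 28.3 UPM. Jag1, a Notch ligand also chosen afterwards, stood at 79.6 and 76.3 UPM against 16.9 and 17.5 UPM. Tfpi2, a protease inhibitor chosen in the same way, was on the side of score D cells, at 35.4 and 33.0 UPM in members against 378 and 302 UPM.

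Score A, which chose the members, also varied among them. Its median was 1.50 in WT and 1.46 in the transgenic library, with a range of 0.522 to 2.84 and 0.511 to 3.04. The levels on both sides of that median are a description, since the genes were named for their level in cells of high score A. Of the 14 higher genes all stood higher in the upper part in both libraries, by as little as log2 0.08 for Sema3e in WT, and of the 10 lower genes all stood lower except Pappa in WT (4.07 against 2.16 UPM). Split in this way, the upper 132 WT members held 252 UPM of Adamts16 and the lower 132 held 58.6, and the upper and lower 101 transgenic members held 252 and 119 UPM. Sbsn was spread in the same way, at 204 and 56.7 UPM in WT and 379 and 94.9 UPM in the transgenic library. Mgp ran opposite, at 7.33 and 102 UPM in WT and 9.05 and 223 UPM in the transgenic library. Edn1 differed less, at 92.1 and 69.4 UPM in WT and 65.9 and 52.7 UPM in transgenic members. The 8 WT and 11 transgenic members with a score between 0.5 and 0.6 held 290.2 and 117.0 UPM of Pi16, and the 6 and 7 cells just outside, between 0.4 and 0.5, held 163 and 289.7 UPM.

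The comparison of the libraries asked how members of Paqr4 transgenic mice differed from WT members. Paqr4 itself, which belongs to the progestin and adipoQ receptors and has been linked to ceramide metabolism, had 49 UMIs in WT and 27 in transgenic members, or 7.08 and 5.70 UPM (log2 −0.31, −1.05 to 0.40), an interval that spans 0. A Paqr4 UMI lay in 15.5% and 10.9% of members, and barcodes of free RNA held 4.82 and 5.56 UPM. The 3′ end of the transgene is not given in the labels, so this count may miss its transcripts. Of 3553 genes at 50 UPM or more in members of either library, 31 (0.873%) stood at least 2-fold higher in transgenic members and 30 (0.844%) at least 2-fold lower, and the median of all was 0.10 on the log2 scale. Sex-linked genes were not left out of these counts or of those that follow. Among them, Xist stood at 899 UPM in WT and 0 in transgenic members, Ddx3y at 0.722 and 120 UPM and Uty at 0 and 94.4 UPM. Of the 31, 12 were also past 2-fold in the same direction in the other Pdgfra-positive cells and 27 had the same sign. Of the 30, 12 and 24 did. The libraries are the same in both comparisons. These counts were not set beside the same shares of all 3553 genes, so they describe these genes only.

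The 10 genes with the highest ratios included C7, Col8a1, Adamts6, Cilp and Hmcn2, which encode secreted proteins. C7, a terminal complement component, stood at 12.7 UPM in WT members and 144 UPM in those of the transgenic library (log2 3.50, 3.18 to 3.84), and at 68.4 and 398 UPM in the others (2.54). Members held less C7 than the others in both libraries, and both kinds of cell held more of it in the transgenic library. The 5 members with most C7 UMIs held 59.1% and 46.5% of them, and free RNA held 11.1 and 179 UPM. Col8a1, a short-chain collagen, stood at 23.8 and 182 UPM (log2 2.93; 2.17 in the others). Adamts6, a metalloproteinase, stood at 45.6 and 231 UPM (log2 2.34; 1.10 in the others). Cilp, a cartilage matrix protein also made by fibroblasts, stood at 20.5 and 99.5 UPM (log2 2.28), and Hmcn2, a hemicentin, at 13.3 and 64.4 UPM (log2 2.28).

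Other genes on the higher side had a different value in the remaining stroma. Cdh13, a cadherin that binds adiponectin, stood at 13.4 and 51.8 UPM in members (log2 1.95, 1.60 to 2.31) and at 83.7 and 87.5 UPM in the others (0.06). Its UMIs lay in 12.5% and 23.8% of members. Sv2c, a synaptic vesicle protein, stood at 23.1 and 77.3 UPM in members (log2 1.74) and at 3.87 and 2.81 UPM in the others (−0.46), with 39.9% of the UMIs of transgenic members in 5 cells. No test of the difference between members and others was possible with 1 library of each genotype.

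On the lower side, Smpd3, a sphingomyelinase that releases ceramide, stood at 649 UPM in WT members and 211 UPM in those of the transgenic library (log2 −1.62, −1.72 to −1.52), and at 159.8 and 134 UPM in the others (−0.25). Smpd3, also 1 of the interstitial genes above, had a UMI in 92.4% of the WT members and 69.8% of the transgenic ones. Its excess in members over the others was therefore log2 2.02 in WT and 0.65 in the transgenic library. Daglb, a lipase that makes an endocannabinoid, had a like profile, at 176 and 51.3 UPM in members (log2 −1.78) and 25.6 and 21.8 UPM in the others (−0.23). Sfrp2, a secreted Wnt modulator, stood at 161 and 31.1 UPM in members (log2 −2.37) and was lower in the transgenic library outside them as well (14.3 and 1.59 UPM). Mrgprg, an orphan receptor, stood at 87.8 UPM in WT members, in 20.1% of the cells, and at 2.11 UPM in transgenic members, from 10 UMIs. Outside the members it was close to 0 in both libraries (0.155 and 0.0454 UPM), so nearly all of its stromal transcripts came from members.

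Further genes on the lower side were Il4ra, a subunit of the interleukin receptors of type 2 immunity (log2 −2.69; −1.74 in the others), Lsamp, a neural adhesion molecule (−3.00; −2.52), Thsd4, a microfibril-binding protein (−2.12; −1.54), Aif1l (−1.63; −1.42) and Ctrb1, a digestive protease precursor (−3.31; −2.00). Col6a5, a collagen VI chain, had opposite signs: it stood at 54.9 and 8.87 UPM in members (log2 −2.63) and 8.77 and 42.4 UPM in the others (2.27). In members its UMIs came mostly from 5 cells (66.6% and 92.9%).

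**Figure D3:**
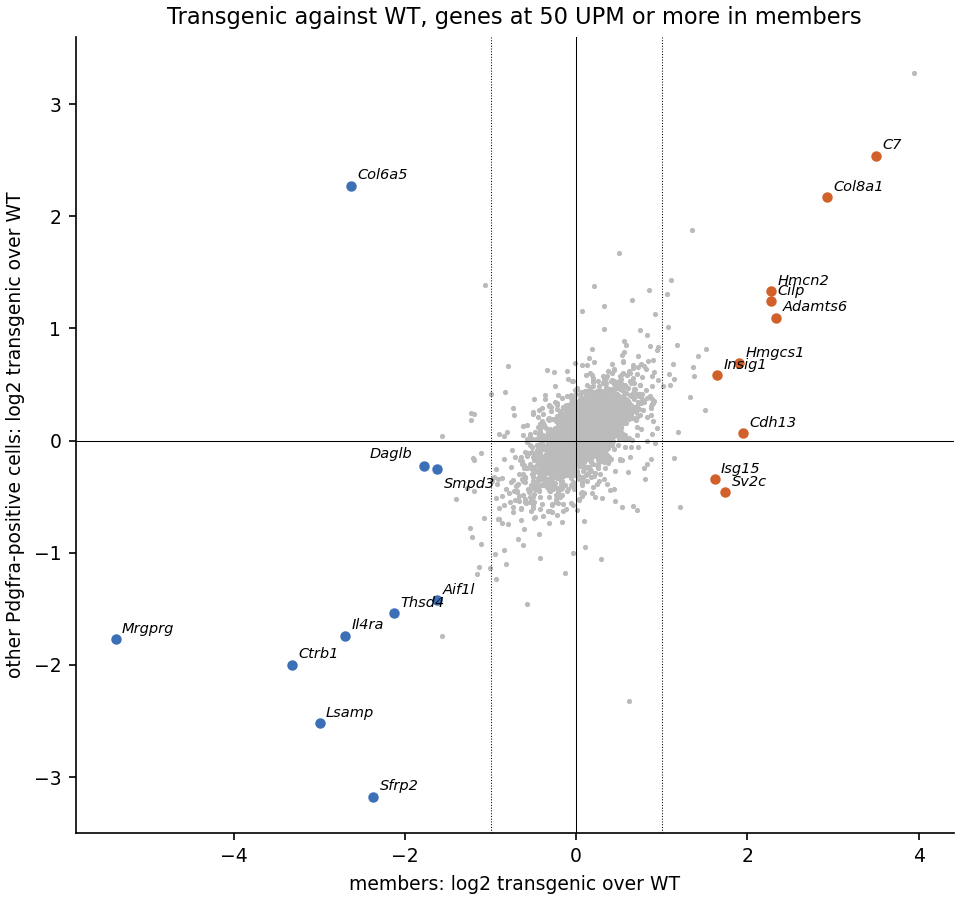
Log2 ratio of transgenic over WT in members (horizontal axis) and in the other Pdgfra-positive cells (vertical axis), each point 1 gene at 50 UPM or more in members of a library, without sex-linked genes. Dotted lines mark 2-fold; the 10 highest (orange) and 10 lowest (blue) named genes are marked, and Col6a5 lies at −2.63 in members and 2.27 in the others.

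Genes of sterol and fatty acid synthesis were the list with the largest median difference between the libraries among the 25 lists. At 10 UPM or more, 6.47% of 8559 genes stood at least 1.5-fold higher in transgenic members and 3.87% at least 1.5-fold lower, with a median of 0.10. Of the 23 genes of this list 19 reached that level, and 18 of them stood higher, all 18 by at least 1.5-fold. The list median was 1.65 in members and 0.58 in the other Pdgfra-positive cells. The list is one that earlier results from these data had already brought up, so its direction is no independent evidence. Counts of genes higher or lower by any amount, here and in the lists below, were not set beside such a share of all genes.

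The pathway is described from its start onwards. Hmgcs1, an early enzyme of the mevalonate pathway, stood at 25.1 UPM in WT members and 94.2 UPM in those of the transgenic library (log2 1.91, 1.65 to 2.17), against 32.7 and 52.7 UPM in the others (0.69). The isoprenoid enzymes Idi1 and Fdps stood at 5.49 and 5.63 UPM in WT and 40.6 and 45.0 UPM in transgenic members (log2 2.89 and 3.00). Members of the WT library were below the other stromal cells for each of these 3 enzymes, and members of the transgenic library above them.

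Further along, the squalene enzymes had few UMIs in WT members. Fdft1, squalene synthase, had 7 UMIs in WT and 86 in transgenic members (1.01 and 18.2 UPM; log2 4.17, 3.06 to 5.52). Sqle, squalene epoxidase, had 6 and 65 UMIs (0.866 and 13.7 UPM; log2 3.99, 2.79 to 5.48). The later sterol enzymes Cyp51, Msmo1 and Sc5d had log2 ratios of 2.70, 2.25 and 1.81 in members and 1.10, 1.08 and 0.33 in the others. Insig1, which holds the sterol-sensing complex in the endoplasmic reticulum, had 111 UMIs in WT and 238 in transgenic members (log2 1.65). In the fatty acid branch, Fasn, Acaca, Elovl6 and Scd2 had log2 ratios of 0.76, 0.72, 0.73 and 0.94, and Scd1, a desaturase, stood at 52.9 and 45.8 UPM (−0.21).

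**Figure D4:**
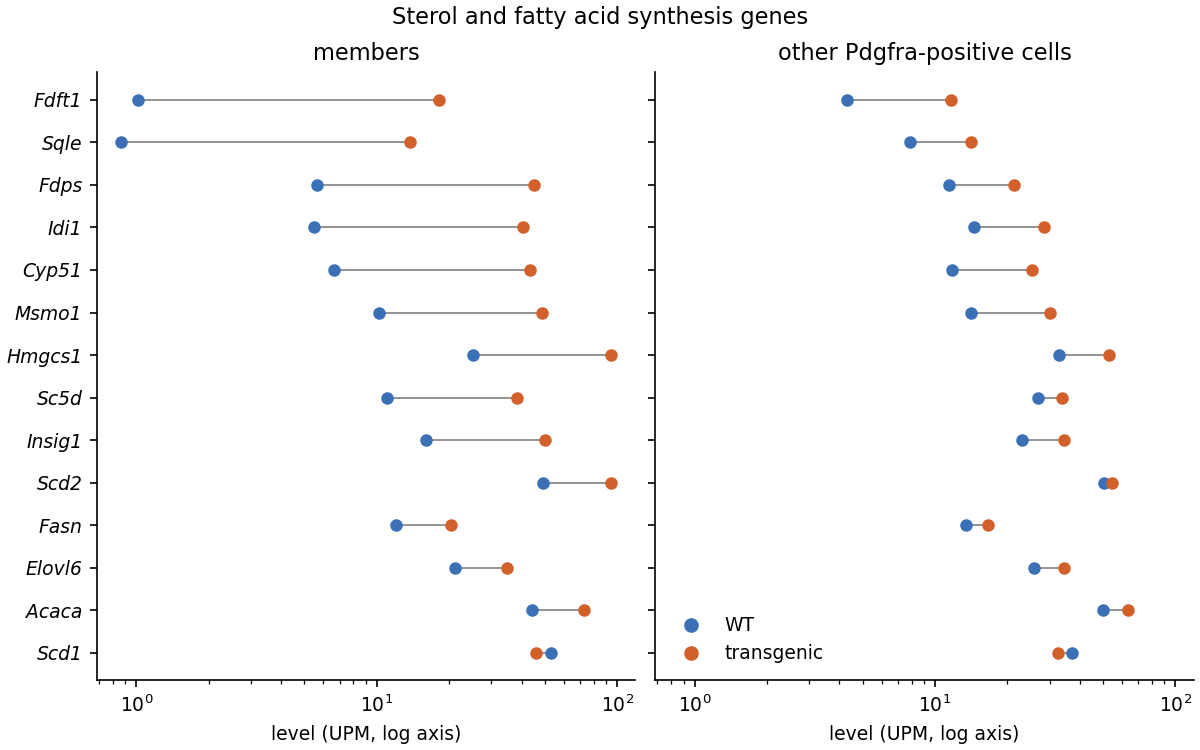
Levels of 14 of the 19 sterol and fatty acid synthesis genes at 10 UPM or more, those described in the text, in members (left) and other Pdgfra-positive cells (right), in UPM on a log axis; each point is 1 library (WT blue, transgenic orange). In members 13 of the 14 orange points lie to the right of the blue ones, with Hmgcs1 at 25.1 and 94.2 UPM and Scd1 the exception.

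The ratio was larger in members than in the other 6 groups of cells, a difference that 1 library of each genotype does not allow to be tested. Summed over the list, members held 339 UPM in WT and 849 UPM in the transgenic library (log2 1.32, 1.25 to 1.40). Score D cells followed at 0.75, cells with no score at 0.5 at 0.72, score F cells at 0.53, score C cells at 0.43, score B cells at 0.19 and score E cells at −0.01. In WT the members were the lowest of these groups and in the transgenic library the highest. Cell by cell, the list took a median of 3.24 of 10000 UMIs in WT members (quartiles 2.11 and 4.33) and 5.88 in transgenic members (3.97 and 9.58), and 82.2% of transgenic members lay above the WT median. The 5 transgenic members with most of these UMIs held 15.5% of them. With the 5 top cells of each gene left out, Hmgcs1 was at 1.66 and Insig1 at 1.51.

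The promoters of Hmgcs1 and Insig1, both among the 10 highest genes of transgenic members, are shown for the sterol regulatory element, the motif bound by SREBP factors, which drive these genes when sterols are low. Each is the 250 bases upstream of the RefSeq start (GRCm38.p6), plus strand, at chr13:119690101-119690350 and chr5:28071162-28071411, with capitals marking the core CACCCCAC.
Hmgcs1: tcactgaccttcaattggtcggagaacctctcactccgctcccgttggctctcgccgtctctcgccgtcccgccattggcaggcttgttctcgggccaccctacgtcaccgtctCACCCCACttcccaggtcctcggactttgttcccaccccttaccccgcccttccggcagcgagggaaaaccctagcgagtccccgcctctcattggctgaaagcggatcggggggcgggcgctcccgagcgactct
Insig1: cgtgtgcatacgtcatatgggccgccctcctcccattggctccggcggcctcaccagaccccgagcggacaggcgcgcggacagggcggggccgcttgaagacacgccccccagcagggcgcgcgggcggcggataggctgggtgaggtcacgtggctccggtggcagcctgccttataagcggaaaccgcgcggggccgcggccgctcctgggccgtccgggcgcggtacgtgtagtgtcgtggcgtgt
The core begins 136 bases before the start of Hmgcs1, and these letters are not in the Insig1 window. On either strand they occurred in 2.58% of all 32851 promoters, in 1 of the 14 list genes with an entry (Hmgcs1) and in 1 of the 11 leading member genes with an entry (Arhgef28). Diverged forms of the element were not searched.

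Interferon response genes gave different answers by gene and by cell. Of 23 measured genes 20 stood higher in transgenic members, 9 by at least 1.5-fold, with a median of 0.45 in members and −0.35 in the others. Isg15, a ubiquitin-like modifier, stood at 18.2 and 55.8 UPM in members (log2 1.62) and 38.1 and 30.0 UPM in the others (−0.35). Rsad2, the antiviral protein viperin, stood at 7.08 and 30.2 UPM in members (log2 2.09; −0.22 in the others), and Ifit3 at 6.35 and 22.0 UPM (log2 1.79; −0.57 in the others). Few cells held many of these UMIs: 5 members had 43.7% of the Isg15 UMIs in WT and 56.4% in the transgenic library, and the list summed to 3927 and 4042 UPM over all members of each library (log2 0.04). The median member held 35.1 of 10000 UMIs in WT and 31.8 in the transgenic library, and 40.1% of transgenic members lay above the WT median. Cxcl9, an interferon-induced chemokine, stood at 4.19 and 39.9 UPM, with 96.6% and 98.9% of its UMIs in 5 cells.

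**Figure D5:**
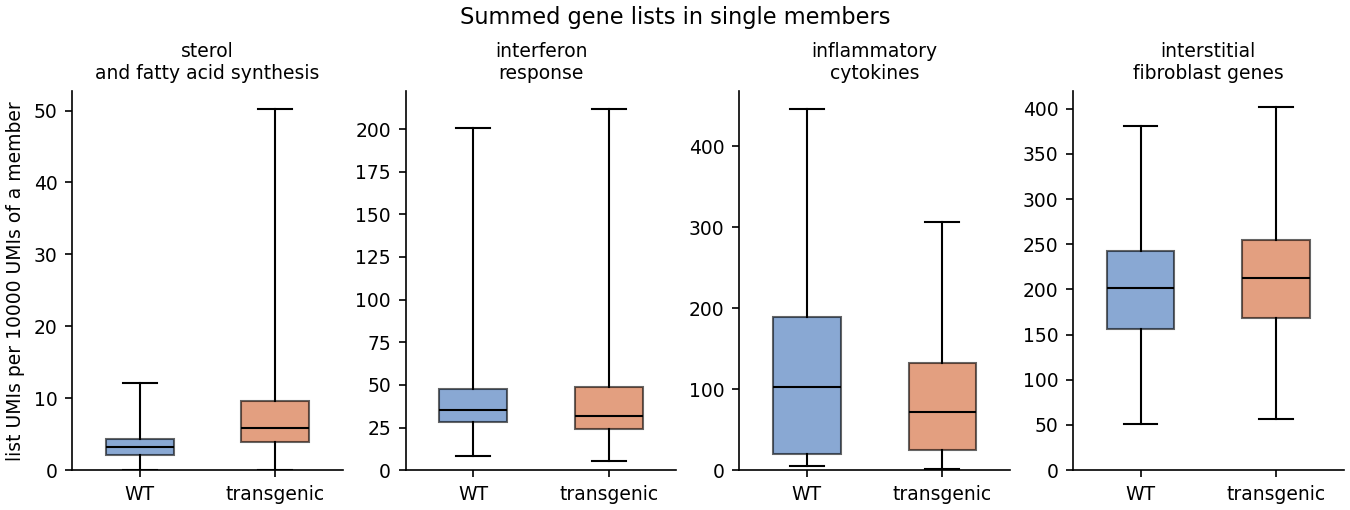
UMIs of 4 gene lists per 10000 UMIs of each member (vertical axis, own scale per panel), for 264 WT (blue) and 202 transgenic (orange) members. Boxes span the quartiles with the median as a line and whiskers reach the lowest and highest cell; the sterol list has medians of 3.24 and 5.88, while the interferon list has 35.1 and 31.8.

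The interstitial genes had a median near that of all genes between the libraries, but single genes differed. The 23 interstitial fibroblast genes had a median of 0.09 between the libraries, with 3 of them at least 1.5-fold higher and 4 at least 1.5-fold lower in transgenic members, compared with 6.47% and 3.87% of all genes. Fbn1 stood at 3752 and 5612 UPM (log2 0.58), Opcml, a neural adhesion molecule, at 2173 and 1134 UPM (−0.94), and Stmn4, a microtubule regulator, at 43.8 and 94.4 UPM (1.11). The list took a median of 201 of 10000 UMIs in WT members and 213 in transgenic members. Of 17 ceramide and sphingolipid genes, the pathway in which Paqr4 is placed, 13 stood higher in transgenic members, 1 of them at least 1.5-fold and none at least 1.5-fold lower, with a median of 0.26 in members and 0.15 in the others. Without Pi16 in score A the member median was 0.16. The 1 gene at least 1.5-fold higher was S1pr3, a receptor of sphingosine phosphate (9.68 and 22.6 UPM). The sphingomyelinase gene Smpd3, described above, was counted with the interstitial genes and was not part of this list. Its level went down from 649 to 211 UPM between WT and transgenic members. The count of none at least 1.5-fold lower therefore leaves Smpd3 out. The adiponectin receptor genes Adipor1 and Adipor2 had log2 ratios of 0.12 and 0.33.

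The medians of stress and of inflammatory genes had the same sign in members and others. Of 16 heat shock and chaperone genes 14 stood higher in transgenic members, 5 by at least 1.5-fold, with a median of 0.39 in members and 0.34 in the others. Hspb1, a small heat shock protein, stood at 276 and 580.4 UPM (log2 1.07; 1.01 in the others). Of 16 inflammatory genes 13 stood lower in transgenic members, 3 by at least 1.5-fold, with medians of −0.22 and −0.35, and −0.11 without members that had another score at 0.5. Ptx3, a soluble pattern recognition protein, stood at 941 and 489.8 UPM (log2 −0.94; −1.01 in the others), while Ccl2, a monocyte attractant, stood at 904 and 1141 UPM (0.34; −0.17). Single members varied widely in the sum of all 20 listed inflammatory genes. Between the quartiles it ran from 20.3 to 189 of 10000 UMIs in WT and from 24.7 to 133 in the transgenic library. Of 16 immediate early genes 10 stood lower in transgenic members, 3 by at least 1.5-fold (median −0.14). Immediate early and heat shock genes respond to tissue handling, and the part of handling in these values was not tested.

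Of 5 measured genes of the F3 progenitor list 4 stood higher in transgenic members, 3 by at least 1.5-fold, and 1 lower by at least 1.5-fold, with a median of 0.70 in members and 0.26 in the others. With the scores taken on thinned cells the member median was 0.41. The sum of all 9 matched genes of the list, without a level floor, lay above the WT median in 77.2% of transgenic members. Igfbp5 differed in sign: it stood at 697 UPM in WT members and 1072 UPM in those of the transgenic library (log2 0.62), while in the other Pdgfra-positive cells it stood at 219 and 44.0 UPM (−2.32). Of 7 lipid handling genes 6 stood lower in transgenic members, 3 by at least 1.5-fold, with a median of −0.29. That median depended on the processing, from −0.19 without Pi16 in score A to −0.76 as a mean of single-cell levels, and it was −0.68 with the called doublets removed.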

How the data were processed

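The authors deposited raw counts, that is UMIs per gene and barcode, for all barcodes of 2 libraries. Per the submitters' processing notes they used Cell Ranger 7.0.0 and build mm10, whereas per the file headers the matrices came from Cell Ranger 4, and the sources do not settle this. Of the 32286 features, 78 that shared a symbol were summed by symbol. Gene positions are from GENCODE M21 (GRCm38) and promoters from RefSeq (GRCm38.p6), where 11 of the 14 leading member genes and 14 of the 23 sterol list genes had an entry.

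Levels of single cells were log1p(UMIs per 10000), standardised over the pooled Pdgfra-positive cells. UMIs were then summed per library over members and over the other Pdgfra-positive cells and divided by the total (UPM). Shares carry Clopper-Pearson, levels Poisson and ratios conditional binomial intervals at 95%; these leave out how UMIs vary between cells and mice. A count of 0 was set to 3 UMIs (0.433 UPM in WT and 0.634 UPM in transgenic members) for a ratio. Named genes were the 14 highest and 10 lowest in members, the 10 highest and 10 lowest between the libraries, at 50 UPM or more (in each library for the first pair, in either for the second), up to 4 for each list at 10 UPM or more, and the 8 most like score A. Genes of the scores, Gm, Rik, mitochondrial, ribosomal, haemoglobin and sex-linked genes were left out of these. The counts over all genes left out only the genes of the scores and Pdgfra, so sex-linked genes are in them. Further genes of a fixed list (Cyp51, Msmo1, Fasn, Acaca, Elovl6 and Scd2) are given to show the pathway. Some genes are not reported here. 25 gene lists and 10 marker lists were used; Cxcl11, Pref1 and Cd142 matched no feature.

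The members and the lists were chosen with earlier results of these data known. Doublets were called with Scrublet in scanpy 1.11.5 and removed only as an alternative. Endothelial cells served as a reference for background. Python 3.11.15, numpy 2.4.6, scipy 1.17.1, pandas 2.3.3 and matplotlib 3.10.9 were used, and the scripts were tested on simulated data. In all, 19 alternatives were run.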

Additional observations from a re-analysis of the deposited data

Results flagged for a closer look

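The deposited matrices hold an added eGFP feature that no comparison above uses. It had 4 UMIs over all barcodes of the transgenic library and 0 in the WT library, and 0 of the 4 lay in members.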

How the results depend on the processing

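The results rest on 1 library of each genotype, so none could be left out, and no interval covers differences between mice. No paired analysis was possible because each genotype has 1 library. All 44 named genes kept their direction and their 2-fold size under every alternative run for them, 2 of which (cells above 1% haemoglobin left out, members with another score at 0.5 left out) were chosen after seeing the data. Standardising the scores within each library moved the share ratio to 0.772. The level floor set the counts of genes: at 20 UPM, 270 genes were 2-fold lower in members, 78 higher and 70 lower in transgenic members, and at 100 UPM 95, 17 and 18. The median of the CAP domain list between the libraries, from 3 genes, went from 0.40 to −0.11 without members that had another score at 0.5; fewer cells entered that value. The sterol list median lay between 1.52 and 1.76, the interferon list median between 0.34 and 0.49, and the member-to-other median of the interstitial list between 1.78 and 1.89. WT shares lay between 16.6% and 27.8% and transgenic shares between 11.6% and 17.4%, the lowest without members that had another score at 0.5 and the highest where A need not be the highest score. Over the other list medians and alternatives, 31 values passed a size of 0.3 and 16 fell below it, with 751 on the same side. Depth limits the rare genes: 3 UMIs correspond to 0.433 UPM in WT members and 0.634 UPM in those of the transgenic library.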

Other observations

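Surface antigens used to sort mesenchymal cells were split in the members. Cd248, endosialin, stood at 727 UPM in WT members and 852 UPM in those of the transgenic library, against 267 and 313 UPM in the other Pdgfra-positive cells. Thy1 stood at 62.1 and 70.1 UPM against 31.8 and 26.5. Vcam1, an adhesion molecule for leukocytes, stood at 40.4 and 23.9 UPM against 140.2 and 96.6, and Eng, a co-receptor of TGF-beta ligands, at 48.7 and 57.9 UPM against 97.6 and 100.4. Of 12 measured antigens 3 were at least 1.5-fold higher and 2 lower in members of both libraries, beside 5.01% and 9.24% of all genes.

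Hyaluronan and proteoglycan genes also divided. Has2, a hyaluronan synthase, stood at 256 and 234 UPM in members against 137 and 60.2, and Vcan, the large proteoglycan versican that binds hyaluronan, at 619 and 949.7 UPM against 312 and 479. Podn, a small leucine-rich proteoglycan, was on the other side at 36.5 and 39.1 UPM against 103 and 126. Among adipogenic factors, Ebf2 stood at 1418 and 1410.5 UPM in members against 774 and 839, and Cebpd at 859 and 591 UPM against 1825 and 1344. Zbtb16, a zinc finger factor, stood at 698 UPM in WT members and 236 UPM in those of the transgenic library, a log2 ratio of −1.57, beside −1.74 in the others.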
